A study of Mus musculus with 2 samples.

Results

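Pattern recognition receptors and the NF-kB pathway were followed in the lungs of carcinogen-treated mice, in transgenic Rosa26-Foxm1 animals against wild type. The genes were chosen by symbol, as Toll-like receptors, NOD-like receptors, C-type lectins of the Clec series, Irak and Ripk kinases, IKK subunits, NF-kB and IkB genes, and the adaptors and co-receptors Myd88, Cd14, Ly96, Ticam1, Ticam2 and Tirap. Of 13840 genes named by a probe of their own, 68 met this rule, each with 1 probe. A further 30 RefSeq genes of the same names, among them Tlr4, Tlr6, Myd88, Ticam1, Irak4, Ikbkb, Nfkb1, Nfkbia and Ripk2, were not analysed here.

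Rosa26-Foxm1 mice carry a Foxm1 transgene named for the Rosa26 locus, whose promoter is active in many cell types. Foxm1 is a transcription factor of dividing cells. The Rosa26-Foxm1 array held a pool of RNA from 3 mice, taken from left lung lobes, and the labels used here state neither strain, sex nor age for them. The wild-type array held a like pool from 3 FVB/N males, with no age given. Both groups had received 3-methylcholanthrene, a carcinogen, at 15 µg per g, and then 6 weekly injections of butylated hydroxytoluene, a lung tumour promoter, at 150 µg per g first and 200 µg per g later. Lungs were taken 12 weeks after the carcinogen, and no untreated lung was analysed here. Each genotype has a single array, so the spread between animals is unknown and the genotypes could not be tested against each other.

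Innate immune cells sense microbes and damaged tissue through these receptors. Toll-like receptors signal through adaptors and Irak kinases to the IKK complex, which releases NF-kB from its IkB inhibitors. NF-kB then switches on cytokine, chemokine and survival genes, including several of its own inhibitors. NOD-like receptors detect ligands in the cytosol, and many C-type lectins bind sugars or glycolipids on fungi, mycobacteria and dying cells. In lung the main carriers are alveolar macrophages, recruited monocytes and neutrophils, dendritic cells and, for some receptors, epithelium and endothelium.

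Values are probe intensities, quantile normalised so that both arrays have the same distribution. The median probe intensity of 1.00 served as the floor, and genes brighter than that on 1 array or both counted as measured. Differences are on the log2 scale, Rosa26-Foxm1 minus wild type. If a gene fell under the floor on its dimmer array, its fold is a lower bound and is given as at least that value. Error can be gauged only by the probe SD, which is how much the log2 difference varied between probes of 1 gene. Over the 317 genes that had 2 or more measured probes it came to 0.31, with 0.38 for dimmer and 0.23 for brighter genes, and it leaves out differences between mice. Lung identity was plain on both arrays, with the surfactant gene Sftpc at 859 in Rosa26-Foxm1 and 1228 in wild-type lung. The Foxm1 probe was near the floor, at 1.23 in Rosa26-Foxm1 and 1.13 in wild-type lung, so the genotype labels could not be checked by it.

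The promoters of 3 NF-kB pathway genes are shown because they hold matches to the 10-base NF-kB consensus, in capitals. Nfkbid and Nfkbie encode IkB-family inhibitors that were brighter in Rosa26-Foxm1 lung, and Nfkb2 encodes the p100 subunit, whose intensities were close on both arrays. The sequences are RefSeq windows of assembly GRCm38.p6, from 250 bases before to 50 after the transcription start, at chr7:30422156-30422455, plus strand, for Nfkbid, chr17:45555450-45555749, plus strand, for Nfkbie and chr19:46304487-46304786, plus strand, for Nfkb2.
Nfkbid: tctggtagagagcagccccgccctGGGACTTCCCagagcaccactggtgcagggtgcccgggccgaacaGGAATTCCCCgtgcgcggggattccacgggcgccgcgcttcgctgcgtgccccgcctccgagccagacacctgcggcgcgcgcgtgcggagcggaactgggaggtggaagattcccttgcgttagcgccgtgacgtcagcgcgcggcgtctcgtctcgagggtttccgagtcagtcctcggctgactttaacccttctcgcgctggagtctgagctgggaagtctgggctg
Nfkbie: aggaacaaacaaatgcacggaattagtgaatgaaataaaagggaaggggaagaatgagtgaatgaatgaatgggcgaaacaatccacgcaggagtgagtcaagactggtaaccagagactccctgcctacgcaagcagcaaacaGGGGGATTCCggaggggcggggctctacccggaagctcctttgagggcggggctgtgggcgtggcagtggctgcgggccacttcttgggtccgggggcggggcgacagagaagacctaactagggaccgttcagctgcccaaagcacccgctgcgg
Nfkb2: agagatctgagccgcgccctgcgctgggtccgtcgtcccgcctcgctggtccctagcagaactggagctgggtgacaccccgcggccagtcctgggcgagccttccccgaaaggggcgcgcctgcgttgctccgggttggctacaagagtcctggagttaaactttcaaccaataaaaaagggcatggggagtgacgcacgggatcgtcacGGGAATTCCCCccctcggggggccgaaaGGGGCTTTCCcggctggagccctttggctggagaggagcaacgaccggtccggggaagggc
The Nfkbid window has the sites GGGACTTCCC and, on the opposite strand, GGAATTCCCC, beginning 226 and 181 bases before the start. The Nfkbie window has GGGGGATTCC, 106 bases before it. In the Nfkb2 window the run GGGAATTCCCC, 39 bases before the start, holds overlapping matches on both strands, and GGGGCTTTCC follows 11 bases before the start. Searched on both strands, the consensus was present in 4.51% of all 32851 RefSeq windows and in 5.27% of the windows of measured genes. Windows were found for 36 of the measured pathway genes, some with several start sites, and 7 of their 51 windows held a match, in Nfkb2, Nfkbid, Nfkbie, Tlr2 and Tlr3. A match is a run of letters and does not show binding.

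A second pair of promoters belongs to neighbouring lectin genes on chromosome 6, Clec4d and Clec4e, whose differences between the genotypes had opposite signs. Their windows are chr6:123261857-123262156, plus strand, and chr6:123289822-123290121, minus strand. Capitals mark the 7-base run GAGGAAG, a form of the site of PU.1, a transcription factor of myeloid cells, searched on both strands.
Clec4d: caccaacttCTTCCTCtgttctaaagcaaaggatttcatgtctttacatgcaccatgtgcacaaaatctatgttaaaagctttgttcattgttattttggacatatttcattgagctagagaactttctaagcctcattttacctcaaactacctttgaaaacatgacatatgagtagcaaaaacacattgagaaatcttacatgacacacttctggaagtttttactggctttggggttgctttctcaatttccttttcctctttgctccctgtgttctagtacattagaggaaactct
Clec4e: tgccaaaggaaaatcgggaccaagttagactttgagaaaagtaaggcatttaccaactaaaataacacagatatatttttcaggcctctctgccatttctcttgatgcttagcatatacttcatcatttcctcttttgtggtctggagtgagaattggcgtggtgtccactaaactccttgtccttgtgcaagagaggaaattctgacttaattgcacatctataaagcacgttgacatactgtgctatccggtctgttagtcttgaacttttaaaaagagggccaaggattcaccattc
The Clec4d window holds this run on the opposite strand, as CTTCCTC beginning 241 bases before the start, and it is not in the Clec4e window. The shorter run GAGGAA, without the last base, is in both windows, so the contrast rests on that base. The longer run GAGGAAG was in 13.6% of all windows and in 9 of the 51 windows of the measured pathway genes.

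Of the 68 genes, 46 were brighter than the floor on 1 array or both, and 22 were below it on both. The dim group holds 10 NOD-like receptor genes, 9 C-type lectins, Tlr9, Ticam2 and Rel. Nlrp3, the sensor of the best known inflammasome, had deposited intensities of 0.289 in Rosa26-Foxm1 and 0.234 in wild-type lung, far below the median probe. The other dim NOD-like receptor genes were Nlrp2, Nlrp4a, Nlrp4b, Nlrp4c, Nlrp4f, Nlrp5, Nlrp9b, Nlrp10 and Nlrp14, several of them known from oocytes. The dim lectins were Clec2e, Clec2h, Clec2i, Clec2m, Clec3a, Clec4b2, Clec4f, Clec4g and Clec18a, of which Clec4f marks Kupffer cells of the liver.

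Among the 46 measured genes, 9 reached a 1.5-fold higher value in Rosa26-Foxm1 lung, 6 a 1.5-fold lower one, and 31 lay between. The background over all 9518 measured genes was 7.1% higher and 8.46% lower. The higher genes were Clec4d, Clec5a, Clec4n, Nfkbib, Clec2g, Cd14, Nfkbid, Clec11a and Ly96, and the lower ones Irak3, Irak2, Tlr12, Nlrx1, Nod1 and Nod2. In 4 of the higher genes wild type was below the floor, and in 2 of the lower genes Rosa26-Foxm1 was, and such a gene could only enter with a difference of that sign. Among the 40 genes above the floor on both arrays, 5 were higher and 4 lower, against a background of 6.02% and 7.7%. Their median difference was 0.07, beside -0.06 over all measured genes.

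At the 2-fold size 4 of the 46 were higher and 2 lower, against 1.99% and 1.51% of all measured genes. Dim genes were past the 1.5-fold size more often, as 19.6% of genes dimmer than the median gene and 11.6% of brighter ones were that far apart. Of the 15 genes past that size only Clec4d, Clec4n, Clec11a, Cd14 and Nod1 were among the brighter ones. Of 19 measured pathway genes at least as bright as the median gene, 4 were thus higher and 1 lower, against 5.17% and 6.39% of all genes of that brightness. Each value rests on a single probe whose target sequence was not checked.

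**Figure D1:**
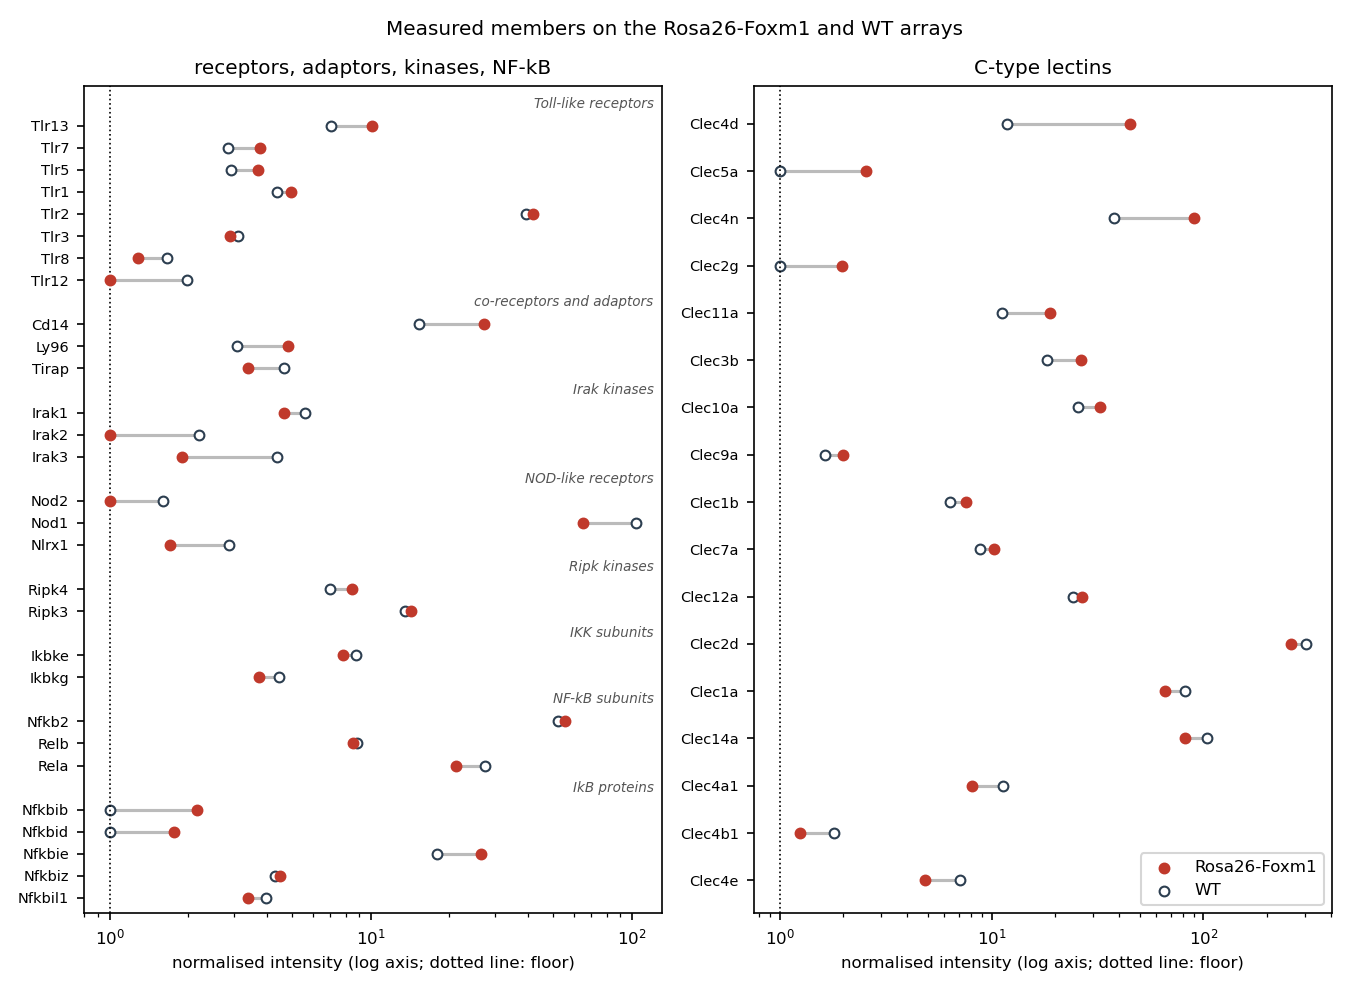
Normalised intensity of the 46 measured genes on the Rosa26-Foxm1 array (filled) and the WT array (open), on a log axis with the floor dotted, 1 point per array. Clec4d (45.0 in Rosa26-Foxm1, 11.8 in WT) and Clec4n (90.5 in Rosa26-Foxm1, 38.0 in WT) are furthest apart among the brighter genes, and the NF-kB subunits lie close together.

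**Figure D2:**
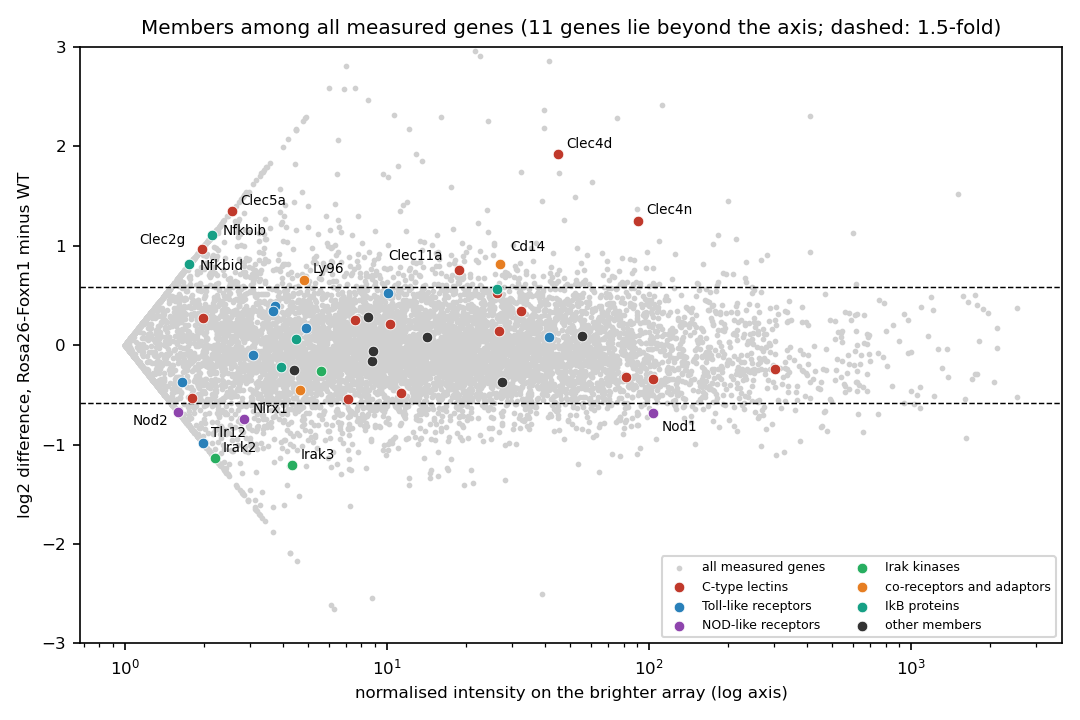
Log2 difference, Rosa26-Foxm1 minus WT, against the intensity on the brighter array (log axis), with all 9518 measured genes in grey and the pathway genes coloured by role. Clec4d and Clec4n stand above most genes of like brightness, while Clec5a, Clec2g, Nfkbib, Nfkbid, Irak2 and Tlr12 lie on the edge set by the floor, and 11 genes lie beyond the axis.

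Toll-like receptors, the membrane sensors of microbial lipids, proteins and nucleic acids, were mostly less than 1.5-fold apart, with differences of both signs. Of 8 measured, 7 lay between and 1 was at least 1.5-fold lower, beside 8.46% of all measured genes, and their median was 0.13. Tlr13, Tlr7, Tlr5, Tlr8 and Tlr12 differed by more than the probe SD of 0.31. For Tlr5 and Tlr8 the difference was under the 0.38 of dimmer genes. Tlr2, the lipopeptide receptor, was well above the floor with 41.7 in Rosa26-Foxm1 and 39.3 in wild-type lung, a log2 difference of 0.08. Its partner Tlr1 had 4.93 in Rosa26-Foxm1 and 4.37 in wild-type lung. Both differences were smaller than the probe SD.

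The highest member was Tlr13, a mouse endosomal receptor of bacterial ribosomal RNA, with 10.1 in Rosa26-Foxm1 and 7.04 in wild-type lung (0.52). Tlr7, which binds single-stranded RNA, had 3.75 in Rosa26-Foxm1 against 2.85 in wild-type lung (0.40). Tlr5, the flagellin receptor, differed by 0.34. The X-linked neighbour of Tlr7, Tlr8, had the opposite sign at -0.37, with 1.28 in Rosa26-Foxm1 and 1.65 in wild-type lung, both near the floor. Tlr3, the receptor of double-stranded RNA, was at -0.10. The endosomal receptors had differences of both signs.

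The lowest was Tlr12, a profilin receptor of mice, whose deposited intensity was 0.621 in Rosa26-Foxm1 and 2.03 in wild-type lung. The decrease was at least 1.98-fold, since the Rosa26-Foxm1 value was under the floor.

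The co-receptors of lipopolysaccharide sensing were both brighter in Rosa26-Foxm1 lung. Cd14, which hands lipopolysaccharide to the Toll-like receptor complex, had 27.1 in Rosa26-Foxm1 and 15.3 in wild-type lung (1.77-fold higher). Ly96, which encodes MD-2, the lipopolysaccharide-binding partner of Tlr4, had 4.83 in Rosa26-Foxm1 and 3.06 in wild-type lung (1.58-fold higher). Differences were 0.82 and 0.66, each more than the probe SD. Tirap, the sorting adaptor that brings Myd88 to the membrane, went the other way with 3.40 in Rosa26-Foxm1 and 4.65 in wild-type lung (-0.45).

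Among other genes of receptor folding and delivery, taken as a list, 1 of 9 measured was at least 1.5-fold higher and none lower. Their median was -0.03, and of all measured genes 7.1% were that much higher and 8.46% lower. The higher one was Ly86, the MD-1 partner of Cd180, with 9.75 in Rosa26-Foxm1 and 6.46 in wild-type lung (1.51-fold). The chaperone of endosomal receptors Unc93b1 was at 0.02 and the lipopolysaccharide-binding protein gene Lbp at 0.17. Cd36, a lipid scavenger receptor that assists Tlr2, was the lowest at -0.41, with 275 in Rosa26-Foxm1 and 366 in wild-type lung.

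The Irak kinases link Myd88 to the ubiquitin ligase Traf6, and all 3 measured were dimmer in Rosa26-Foxm1 lung. So were 5332 of all 9518 measured genes. Irak3, also called IRAK-M, a myeloid member with little kinase activity that restrains Toll-like receptor signalling, had 1.89 in Rosa26-Foxm1 and 4.36 in wild-type lung (2.30-fold lower). Counted from the bottom it ranked 71 of the 9518 measured genes. Irak2, which sustains the signal, had deposited intensities of 0.725 in Rosa26-Foxm1 and 2.24 in wild-type lung, a decrease of at least 2.20-fold, as the Rosa26-Foxm1 value was under the floor. Irak1 had 4.67 in Rosa26-Foxm1 and 5.59 in wild-type lung (-0.26), less than the probe SD. All 3 probes were dimmer than the median gene, for which 2.42% were at least 2-fold lower.

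Downstream kinases, ubiquitin ligases and interferon regulatory factors differed little. In that list 1 of 17 measured genes was at least 1.5-fold lower and none higher, beside 8.46% and 7.1% of all measured genes. The median was -0.06, close to that over all measured genes. Map3k14, the NIK kinase of the non-canonical NF-kB route, was the lowest with 1.59 in Rosa26-Foxm1 and 2.70 in wild-type lung (1.70-fold lower). The interferon factor Irf7 was the highest at 0.51, with 5.91 in Rosa26-Foxm1 and 4.15 in wild-type lung. Tbk1 was at -0.03, Map3k7, which encodes TAK1, at 0.02 and Traf6 at -0.16.

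The 3 measured NOD-like receptors were all at least 1.5-fold lower in Rosa26-Foxm1 lung, as were 8.46% of all measured genes. The other 10 were below the floor on both arrays, so these 3 do not stand for the family. Nod1, a sensor of bacterial peptidoglycan found in epithelium and many other cells, had 64.7 in Rosa26-Foxm1 and 104 in wild-type lung (1.60-fold lower). Its probe was far above the floor, unlike those of Nod2 and Nlrx1. With median scaling, and with the deposited values, Nod1 was at -0.57, just inside the 1.5-fold size. Nod2, the muramyl dipeptide sensor of myeloid cells, was at the floor with 1.00 in Rosa26-Foxm1 and 1.60 in wild-type lung. Nlrx1, a mitochondrial member that tempers antiviral and NF-kB signals, had 1.70 in Rosa26-Foxm1 and 2.85 in wild-type lung (1.68-fold lower). The list of cytosolic nucleic acid sensors and their adaptors had all 4 measured genes below 0, none past 1.5-fold, with Ifih1 and Mavs both at -0.32. Of all 9518 measured genes, 5332 were below 0.

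The partners of inflammasomes did not move in 1 direction. Of 13 measured effector genes, 3 reached 1.5-fold upward, 2 downward and 8 neither, with a median of 0.26. Among all measured genes, 7.1% reached it upward and 8.46% downward. Pycard, the ASC adaptor, had 22.7 in Rosa26-Foxm1 and 11.8 in wild-type lung (1.93-fold higher), and the cytokines Il1a and Il18 were 1.62-fold and 1.60-fold higher. Casp1, the protease that ASC recruits, had 11.9 in Rosa26-Foxm1 and 23.3 in wild-type lung (1.95-fold lower). Txnip, a thioredoxin-binding protein linked to Nlrp3, was 1.99-fold lower. Gsdmd, the pore-forming substrate of Casp1, was at -0.31. The adaptor and its protease thus had differences of near equal size and opposite sign.

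The Ripk kinases, which act in cell death and NF-kB signalling, differed by less than the probe SD. Ripk3, the necroptosis kinase, had 14.3 in Rosa26-Foxm1 and 13.5 in wild-type lung, and Ripk4, a kinase of epithelia, had 8.49 in Rosa26-Foxm1 and 6.95 in wild-type lung. Of the IKK subunits, Ikbkg, which encodes the scaffold NEMO, had 3.74 in Rosa26-Foxm1 and 4.43 in wild-type lung, and Ikbke, a kinase related to Tbk1, had 7.83 in Rosa26-Foxm1 and 8.76 in wild-type lung. Their differences of -0.25 and -0.16 were also within the probe SD.

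None of the measured NF-kB subunits was 1.5-fold apart. Nfkb2 had 55.5 in Rosa26-Foxm1 and 52.2 in wild-type lung (0.09), and Relb, its partner in the non-canonical route, had 8.51 in Rosa26-Foxm1 and 8.89 in wild-type lung (-0.06). Rela, which encodes p65, had 21.3 in Rosa26-Foxm1 and 27.5 in wild-type lung (-0.37). These are transcript levels, and NF-kB activity is set largely by release of the proteins from IkB, which the arrays do not measure.

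Of the 5 IkB genes, which encode inhibitors and nuclear cofactors of NF-kB, 2 were past 1.5-fold upward and none downward. The background over all measured genes was 7.1% upward and 8.46% downward. Nfkbie, which encodes IkB epsilon, had 26.4 in Rosa26-Foxm1 and 17.9 in wild-type lung (0.56, 1.48-fold). It was past 1.5-fold with loess scaling, at 0.61, and with median scaling and the deposited values. Nfkbib, which encodes IkB beta, was at least 2.15-fold higher, with deposited intensities of 2.12 in Rosa26-Foxm1 and 0.260 in wild-type lung. Nfkbid, a nuclear IkB protein, was at least 1.76-fold higher, with 1.73 in Rosa26-Foxm1 and 0.616 in wild-type lung as deposited. Both were close to the floor at best and passed it only on the Rosa26-Foxm1 array, so their differences could only be upward. Nfkbiz, another nuclear IkB protein and an early NF-kB target, had 4.49 in Rosa26-Foxm1 and 4.29 in wild-type lung (0.07). Nfkbil1 was at -0.22. Genes with an NF-kB consensus in the promoters printed above therefore included both brighter (Nfkbid, Nfkbie) and nearly level ones (Nfkb2), and Tlr2 and Tlr3, which also hold it, differed by 0.08 and -0.10.

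Of 14 measured negative regulators outside the IkB family, 1 was at least 1.5-fold higher and 1 lower, with a median of -0.12. These counts are near the shares over all measured genes, 7.1% higher and 8.46% lower. Socs1, an inhibitor of cytokine signalling, was 1.53-fold higher, with 10.8 in Rosa26-Foxm1 and 7.05 in wild-type lung. Zc3h12a, an RNase that degrades cytokine transcripts, was at 0.49. Tnfaip3, the ubiquitin-editing enzyme A20 and a classical NF-kB target, had 4.15 in Rosa26-Foxm1 and 3.83 in wild-type lung (0.12). Sarm1 was at least 1.70-fold lower.

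NF-kB target genes were split. Of 24 measured, 8 reached 1.5-fold upward, 1 downward and 15 neither, with a median of 0.20 and a mean of 0.69. Of all measured genes, 7.1% were that much higher and 8.46% that much lower. The 8 were Lcn2, Cxcl1, Saa3, Ccl2, Cxcl2, Csf2, Sele and Sod2, of which the last 5 were named after their values were seen. Lcn2, an iron-siderophore binding protein, had 999 in Rosa26-Foxm1 and 65.4 in wild-type lung. Cxcl2, a neutrophil attractant, had 11.0 in Rosa26-Foxm1 and 3.16 in wild-type lung. Tnf, with 1.84 in Rosa26-Foxm1 and 2.76 in wild-type lung (-0.59), was the lower one, and Bcl2l1 (-0.43) and Tnfaip2 (-0.40) came next. Icam1 and Vcam1, NF-kB targets of endothelium and stroma also named after their values were seen, were at -0.16 and -0.15. Sele, likewise a target of endothelium, was 1.72-fold higher, with 2.98 in Rosa26-Foxm1 and 1.73 in wild-type lung. Il6, Nos2 and Csf3 were below the floor on both arrays. The list was drawn up with results of these data known and holds genes also driven by other factors.

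**Figure D3:**
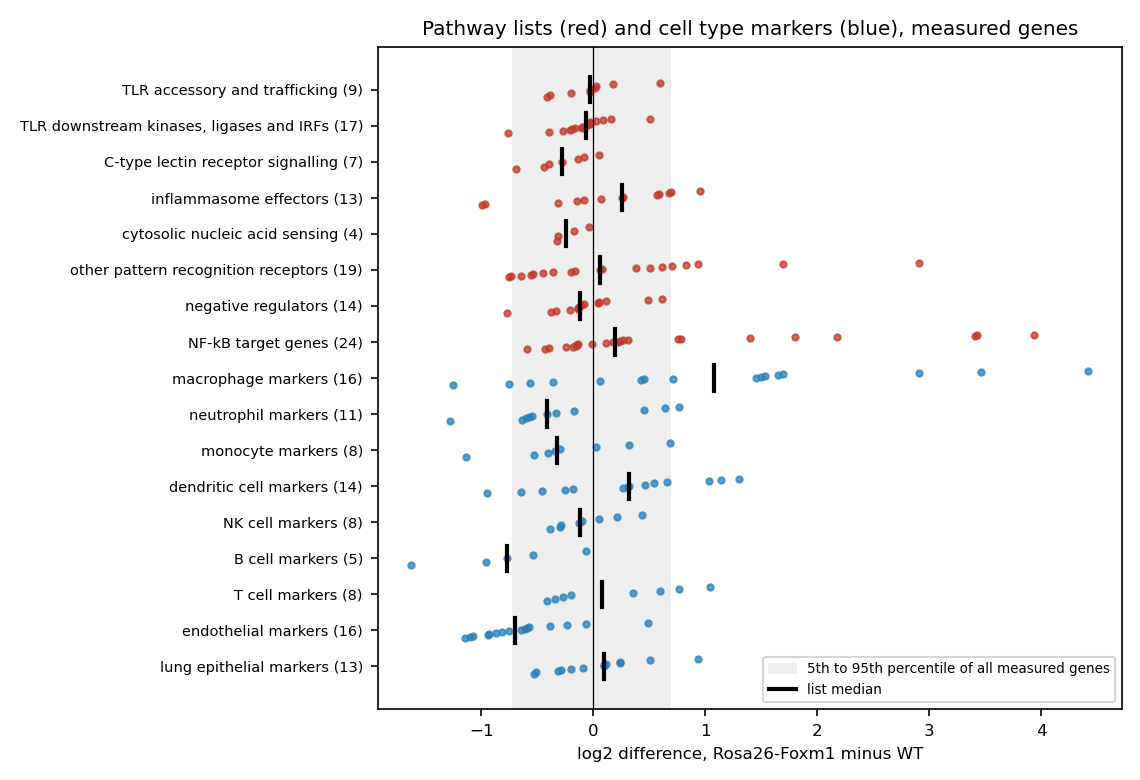
Log2 differences, Rosa26-Foxm1 minus WT, of the measured genes of each pathway list (red) and cell type marker list (blue), 1 point per gene, with list medians as black bars and the 5th to 95th percentile of all measured genes (-0.72 to 0.69) shaded. NF-kB targets spread far to the right around a median of 0.20, macrophage markers have a median of 1.08 and endothelial markers one of -0.70.

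C-type lectins held the largest differences among the pathway genes. Of 17 measured, 5 were at least 1.5-fold higher, none was lower and 12 lay between, with a median of 0.26. Over all measured genes 7.1% were that much higher and 8.46% that much lower. Among the 5, Clec5a and Clec2g passed the floor only on the Rosa26-Foxm1 array, so their differences could only be upward. Clec4d, which encodes MCL, a receptor of mycobacterial glycolipid, had 45.0 in Rosa26-Foxm1 and 11.8 in wild-type lung (3.80-fold higher). It ranked 36 of the 9518 measured genes. Clec4n, which encodes Dectin-2, a receptor of fungal mannans, had 90.5 in Rosa26-Foxm1 and 38.0 in wild-type lung (2.38-fold higher). Both differences, 1.93 and 1.25, were several times the probe SD, and of genes at least as bright as the median gene 1.22% were 2-fold higher.

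Clec4e, which encodes Mincle, is the adjacent gene and its protein pairs with MCL, yet it had the opposite sign with 4.85 in Rosa26-Foxm1 and 7.08 in wild-type lung (-0.54). The differences of Clec4d and Clec4e stood 2.47 apart on the log2 scale, where the error from the probe SD is 0.44. Further along the same cluster, Clec4a1, a receptor of the DCIR type, had 8.08 in Rosa26-Foxm1 and 11.3 in wild-type lung (-0.48). Clec4b1, of the DCAR type, had 1.25 in Rosa26-Foxm1 and 1.81 in wild-type lung (-0.53). Clec4b2 was below the floor on both arrays. The measured lectins of the cluster were thus 2 higher ones beside each other and 3 below 0. Beyond the cluster's end the complement receptor gene C3ar1 was at least 3.17-fold higher, with Necap1 between them at -0.12. Lectins of this cluster are similar in sequence, and the targets of their probes were not checked.

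**Figure D4:**
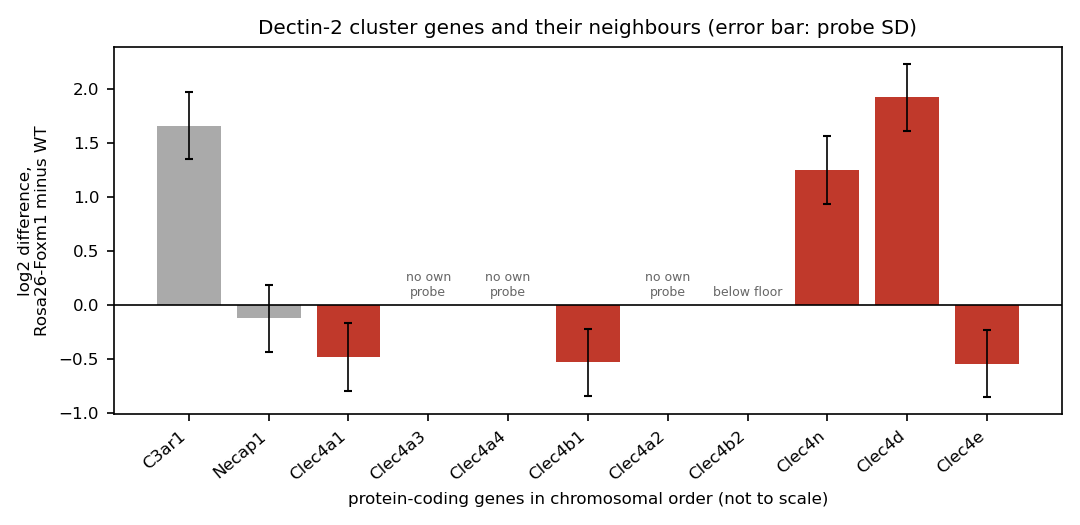
Log2 differences, Rosa26-Foxm1 minus WT, of the protein-coding genes of the Dectin-2 cluster on chromosome 6 and its neighbours in chromosomal order, with the probe SD of 0.31 as error bars. Clec4n (1.25) and Clec4d (1.93) are above 0 and Clec4a1, Clec4b1 and Clec4e lie near -0.5, while the bar of C3ar1 is a lower bound.

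The following myeloid lectins from outside the cluster all had differences above 0. For Clec7a, Clec12a and Clec9a these were within the probe SD of 0.31, and that of Clec5a could only be upward. Clec5a, which encodes MDL-1, a receptor that signals through DAP12, was at least 2.55-fold higher, with deposited intensities of 2.53 in Rosa26-Foxm1 and 0.662 in wild-type lung. Clec7a, which encodes the beta-glucan receptor Dectin-1, had 10.3 in Rosa26-Foxm1 and 8.86 in wild-type lung (0.21, within the probe SD). Clec10a, a galactose-binding lectin of macrophages and dendritic cells, had 32.4 in Rosa26-Foxm1 and 25.5 in wild-type lung (0.35). The inhibitory receptor gene Clec12a had 26.8 in Rosa26-Foxm1 and 24.3 in wild-type lung (0.14). Clec9a, the dead-cell receptor of cross-presenting dendritic cells, was near the floor with 1.99 in Rosa26-Foxm1 and 1.64 in wild-type lung (0.28).

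Genes that act downstream of these lectins were mostly not brighter. Their list holds the phosphatases Ptpn6 (-0.39) and Ptpn11 (-0.08) beside kinases and adaptors. In that list 6 of 7 measured genes were below 0, 1 was at least 1.5-fold lower and the median was -0.28. Over all 9518 measured genes, 5332 were below 0 and 8.46% were at least 1.5-fold lower. Syk, the kinase recruited by Dectin-type receptors, had 15.7 in Rosa26-Foxm1 and 19.1 in wild-type lung (-0.28). Plcg2, the phospholipase downstream of Syk, had 5.22 in Rosa26-Foxm1 and 8.45 in wild-type lung (1.62-fold lower), and Malt1 was at -0.44. The adaptors Fcer1g, Tyrobp and Card9 were not analysed here.

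Lectins of other roles included secreted and vascular ones. Clec11a, a secreted growth factor of bone marrow stroma, had 18.9 in Rosa26-Foxm1 and 11.2 in wild-type lung (1.69-fold higher). Clec3b, which encodes the plasminogen-binding protein tetranectin, had 26.4 in Rosa26-Foxm1 and 18.4 in wild-type lung (0.52). Clec2d, a widely expressed ligand of an inhibitory receptor of NK cells, had 258 in Rosa26-Foxm1 and 304 in wild-type lung (-0.24). Its relative Clec2g was at least 1.96-fold higher and near the floor. Clec1b, the podoplanin receptor of platelets, had 7.59 in Rosa26-Foxm1 and 6.36 in wild-type lung (0.26).

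Both endothelial lectins were below 0. Clec14a had 81.4 in Rosa26-Foxm1 and 103 in wild-type lung (-0.34), and Clec1a had 65.6 in Rosa26-Foxm1 and 81.7 in wild-type lung (-0.32). Beside them, 11 of 16 endothelial markers reached 1.5-fold downward and none upward, against 8.46% and 7.1% of all measured genes. Their summed intensity was 1605 in Rosa26-Foxm1 and 2570 in wild-type lung, with no marker below the floor on both arrays. The part of endothelial content in the lectin values was not tested. In such whole-lobe RNA, fewer cells of a type and less RNA per cell cannot be told apart.

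Pattern recognition receptors of other families also went both ways. Of 19 measured, 6 reached 1.5-fold upward, 3 downward and 10 neither, with a median of 0.06. The shares over all measured genes were 7.1% upward and 8.46% downward. Trem2, a lipid-sensing receptor, had 22.6 in Rosa26-Foxm1 and 3.02 in wild-type lung. The scavenger receptor Msr1 had 10.1 in Rosa26-Foxm1 and 3.11 in wild-type lung (3.24-fold higher), and the lung collectin Sftpd had 413 in Rosa26-Foxm1 and 216 in wild-type lung. Among those that were lower, the decrease of Marco, a macrophage scavenger receptor, was 1.68-fold or more, and Scarb1 (-0.73) and the lectin Cd209a (-0.65) came next. Trem1, a receptor of neutrophils and monocytes that amplifies Toll-like signals, had 4.45 in Rosa26-Foxm1 and 6.47 in wild-type lung, and was named after its value was seen, as was the formyl peptide receptor gene Fpr2 at -0.55.

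Marker lists of the cells that carry these receptors differed in how far they were apart, and their part in the results was not tested. The counts are to be read against the 7.1% of all measured genes that were at least 1.5-fold higher and the 8.46% that were lower. Of all 9518, 4179 were above 0 and 5332 below it. Of 16 measured macrophage markers 9 reached 1.5-fold upward and 2 downward, with a median of 1.08, and none was below the floor on both arrays. Their summed intensity was 2193 in Rosa26-Foxm1 and 1361 in wild-type lung. The largest parts were Chil3 (790 in Rosa26-Foxm1, 587 in wild type) and Ctss (758 in Rosa26-Foxm1, 553 in wild type), neither 1.5-fold apart. Of 14 dendritic cell markers 4 were higher and 2 lower, with sums of 2301 in Rosa26-Foxm1 and 1809 in wild-type lung and a median of 0.32. Cd74 made up 1970 of that sum in Rosa26-Foxm1 and 1575 in wild-type lung. Of 8 monocyte markers 1 was higher and 1 lower. Their sums were 289 in Rosa26-Foxm1 and 259 in wild-type lung, of which Plac8 made up 186 in Rosa26-Foxm1 and 149 in wild-type lung, while the median was -0.32 with 5 of 8 below 0. Of 11 measured neutrophil markers 2 were higher and 3 lower, with sums of 582 in Rosa26-Foxm1 and 785 in wild-type lung and a median of -0.41, and Mpo and Elane were below the floor on both arrays. B cell markers were lower in 3 of 5, with Pax5, Blk and Cd22 below the floor on both, and sums of 47.8 in Rosa26-Foxm1 and 73.7 in wild-type lung and a median of -0.77. T cell markers were higher in 3 of 8 and lower in none, with sums of 44.7 in Rosa26-Foxm1 and 39.6 in wild-type lung, a median of 0.08, and Cd4 below the floor on both. None of 8 NK cell markers was 1.5-fold apart, with sums of 79.7 in Rosa26-Foxm1 and 76.7 in wild-type lung and a median of -0.12. Lung epithelial markers had 1 of 13 higher and none lower. Their sums were 7377 in Rosa26-Foxm1 and 8201 in wild-type lung, while the median was 0.09 with 7 of 13 above 0. Marco, Msr1, Mrc1 and Trem2 stand in both the macrophage and the receptor list, so those lists are not independent. The receptor list also shares Sftpd, Sftpa1 and Ager with the epithelial markers and Cd209a with the dendritic cell markers. Sftpd, the higher epithelial marker, is thus counted in both. The NF-kB target list shares Il1b with the inflammasome effectors, and Tnfaip3 and Tnip1 with the negative regulators.

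**Figure D5:**
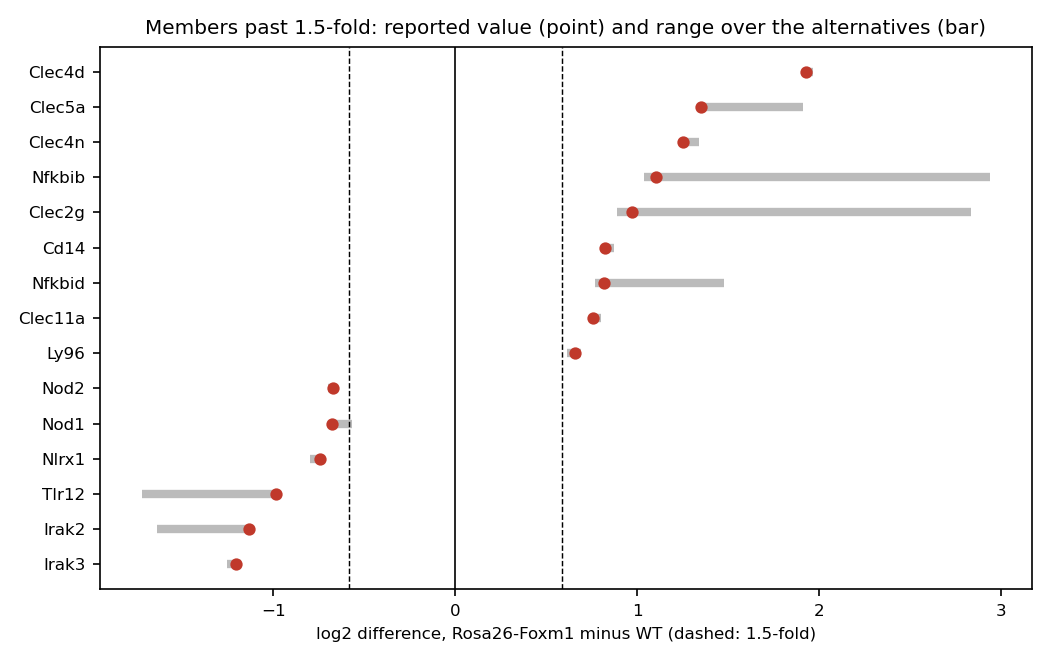
Log2 difference, Rosa26-Foxm1 minus WT, of the 15 pathway genes past 1.5-fold (points), with the range over the 8 alternative settings as bars. All 15 kept their sign wherever they were measured, and the wide bars belong to genes with 1 array below the floor.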

How the data were processed

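The authors deposited linear probe intensities, 1 per probe and array, with a median of 1.00 on both arrays. Per the labels' protocols, cRNA was labelled with digoxigenin by a chemiluminescent kit, and how the images were read and normalised is not stated there. Of 33012 probes, 14411 had 1 gene, 247 several and 18354 none listed in the table used here. Symbols were updated through the gene ID, and 13832 of 13840 genes matched RefSeq (GRCm38.p6).

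Intensities were quantile normalised, floored at the 50th percentile and put on the log2 scale, and a gene took its brightest measured probe (Python 3.11.15, pandas 2.3.3). Differences are Rosa26-Foxm1 minus wild type. The script was tested on simulated data. There is 1 array per group, which limits the precision, so sizes of 1.5-fold and 2-fold were counted and no p-value is given. The genes and the 17 lists were chosen with earlier results of these data known. Named are measured genes of the symbol rule and up to 3 genes at each end of a pathway list, and Tbk1, Map3k7, Traf6, Syk, C3ar1 and Necap1 were named after their values were seen. Alternatives were median, deposited and loess scaling, other floors or none, the median over probes, and measurement on both arrays.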

Additional observations from a re-analysis of the deposited data

How the results depend on the processing

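The median over the pathway genes moved by less than the probe SD under all 8 alternatives. Against 9 higher and 6 lower pathway genes, the floor at the 75th percentile left 4 higher and 1 lower, removing the floor gave 10 lower, and measurement on both arrays left 5 higher. Over all measured genes, 676 were higher and 805 lower. These counts were 1361 and 1548 with the floor at the 25th percentile, 238 and 289 with the floor at the 75th percentile, and 1827 and 2000 without a floor. The shares changed too, to 10.9% higher and 12.4% lower, 4.33% and 5.26%, and 13.2% and 14.5% under those settings, and the cause was not tested. Taken relative to the median gene, an alternative chosen after seeing the data, the pathway counts stayed within 1.5 times. None of the 46 measured pathway genes changed sign under any of the 8 alternatives that measured it, but the medians of 4 lists did. That of receptor folding and delivery, -0.03, was 0.01 to 0.02 under the other scalings. With the floor at the 75th percentile monocyte markers were at 0.02 and NK cell markers at 0.24, and T cell markers, at 0.08, ranged from -0.20 to -0.07 under other floors or measurement on both arrays. Under the highest floor the macrophage median, otherwise 1.08 to 1.14, came to 0.46. No paired analysis was possible because each group has 1 array. Dim probes limit the values of Clec5a, Clec2g, Nfkbib, Nfkbid, Irak2, Tlr12 and Nod2.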

Other observations

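A probe shared by Clec4a4 and Clec4a2, lectin genes that lie between Clec4a1 and Clec4b2 in the Dectin-2 cluster, could not be assigned to either and stands outside the counts. It had a normalised intensity of 10.8 in Rosa26-Foxm1 and 9.36 in wild-type lung, a log2 difference of 0.20.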
